A study of Mus musculus with 6 samples.

Results

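Mouse genes that encode transcription factors of the mammary cell lineages were followed in sorted cells of the Mvt1 mammary carcinoma line: Gata3, Elf5, Esr1, Pgr, Foxa1, Sox9, Trp63, Runx1, Tfap2c and Stat5a. These 10 members were named by their known roles, out of 14771 annotations that name a gene in the deposited reads. No threshold on a value was used, but earlier results of these data were known when members and gene lists were chosen. Of the 10 members, 8 had reads under their present symbol, 1 more (Tfap2c) had reads under the older symbol Tcfap2c, and Elf5 had 0 reads. Only 5 members (Gata3, Esr1, Sox9, Runx1 and Stat5a) had enough reads to be tested.

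Mvt1 cells, of the FVB/N strain and labelled as mammary epithelial cancer cells, were stained for the surface protein CD24 and sorted by flow cytometry into CD24- cells and CD24+ cells. Both groups were then grown as adherent cultures in DMEM with fetal bovine serum, with no further treatment. Messenger RNA was sequenced from 3 plates of each group, 6 libraries in all. Every value describes 1 cell line, the sources used here describe no independent sorts, and p-values and SDs therefore measure the spread between plates.

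The mammary gland has an inner luminal layer and an outer basal layer. GATA3, FOXA1, the estrogen receptor ESR1 and the progesterone receptor PGR are known for the hormone-sensing luminal cells, ELF5 and STAT5A for the alveolar cells that make milk, and the p53 relative TP63 (Trp63 in mouse) for basal cells. SOX9, RUNX1 and TFAP2C act in several of these lineages.

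Each deposited count belongs to a read sequence of 47 nt that matched the genome exactly, and a gene's count is the sum over the reads annotated to it. The reads below are the members' most frequent coding reads, or for Trp63 the coding read nearest the 5′ end and for Foxa1 and Tfap2c the single coding read. They are shown because they make plain at which bases a member differs from a close relative, and what the evidence for a nearly silent member consists of. Capitals mark the bases that differ from the closest stretch of a transcript of the same family, where at most 15 bases differed, and for Pgr they mark a run of CA repeats. Each is printed as sequenced, 5′ to 3′, with mm9 coordinates and the strand it matched.
Gata3, chr2:9780075-9780121, minus strand, against Gata2: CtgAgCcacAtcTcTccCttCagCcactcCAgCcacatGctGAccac
Esr1, chr10:5348574-5348620, plus strand: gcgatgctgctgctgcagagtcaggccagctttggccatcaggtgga
Sox9, chr11:112646499-112646545, plus strand: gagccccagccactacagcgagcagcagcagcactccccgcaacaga
Runx1, chr16:92695918-92695964, plus strand, against Runx2: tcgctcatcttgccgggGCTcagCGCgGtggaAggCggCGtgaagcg
Stat5a, chr11:100742402-100742448, minus strand, against Stat5b: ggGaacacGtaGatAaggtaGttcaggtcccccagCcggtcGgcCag
Trp63, chr16:25863764-25863810, plus strand, against Trp73: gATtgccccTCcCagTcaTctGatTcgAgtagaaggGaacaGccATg
Foxa1, chr12:58643708-58643754, plus strand, against Foxa3: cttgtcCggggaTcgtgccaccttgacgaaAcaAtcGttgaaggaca
Tfap2c, chr2:172378936-172378982, minus strand: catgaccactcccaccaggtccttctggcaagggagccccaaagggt
Pgr, chr9:8941906-8941952, plus strand, matching no Pgr transcript: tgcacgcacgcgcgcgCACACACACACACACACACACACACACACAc
The Foxa1 read differed from Foxa3 at 5 bases and the Stat5a read from Stat5b at 8, and exact matching placed them with the member and not with that relative. The reads of Runx1, Stat5a, Foxa1 and Tfap2c matched the strand opposite to the gene, and the counts carry no strand of the RNA.

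The libraries held 9046025 to 25692147 mapped reads, of which 71.8% to 74.3% were annotated to a gene. CD24+ replicate 1 was the shallowest library. Counts were scaled by edgeR's TMM method and are given as CPM of the gene reads. Cd24a, the gene of the sorted marker, stood at 77.1 ± 7.3 CPM in the CD24+ and 10.2 ± 2.79 CPM in the CD24- libraries (mean ± SD of 3), in the direction of the labels. Of 11125 genes tested with edgeR's quasi-likelihood test, 46.1% passed a Benjamini-Hochberg adjusted p of 0.05, 23.8% as higher and 22.3% as lower in CD24+ cells, and the groups did not overlap for 57.3% of them. The median log2 fold-change of all genes was 0.02. Of the luminal keratins Krt8 had 60574 reads and Krt18 30202 over all libraries, but Krt19 had 482 and Krt7 10, whereas the basal keratins Krt5, Krt14 and Krt17 had 1, 3 and 2 reads. Markers other than keratins did not divide in this way. The luminal claudins Cldn3, Cldn4 and Cldn7 had 109, 13 and 1 reads, and the basal marker Acta2 had 389.

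Among the 5 tested members, 3 passed the test, Esr1 and Sox9 as higher and Gata3 as lower in CD24+ cells. This is 60% of the tested members beside 46.1% of all genes tested, so being called does not set these few genes apart. The groups did not overlap for these 3 members, beside 57.3% of all genes. Runx1 and Stat5a did not pass. The other 5 members had between 0 and 54 reads in all, and the plot of the members by library shows the gap between the tested and the nearly silent members.

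**Figure D1:**
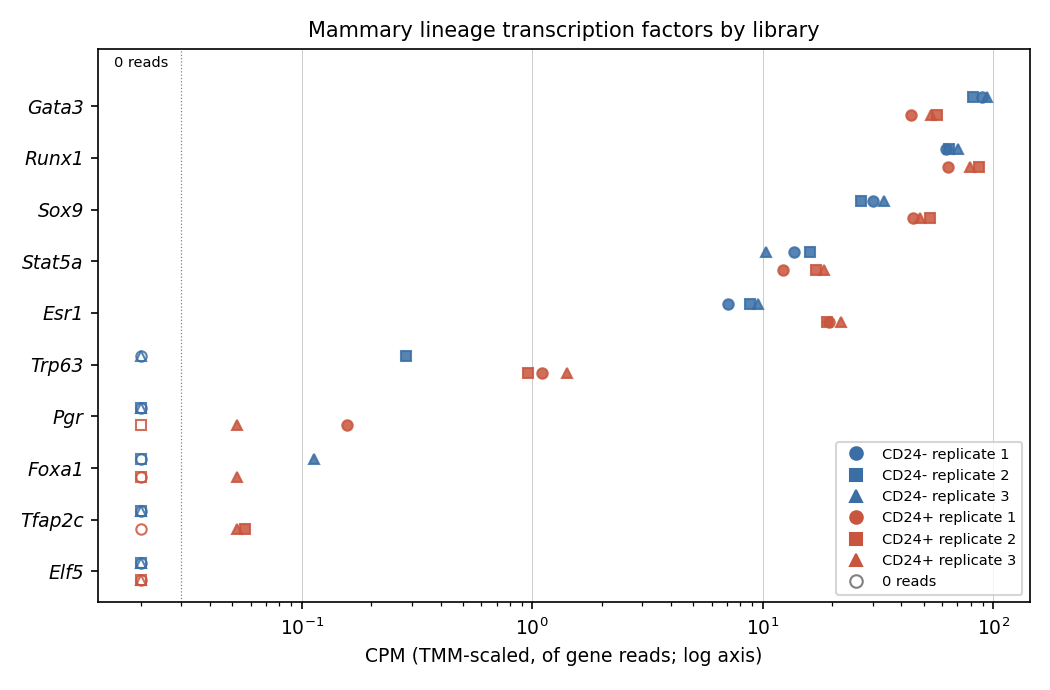
CPM of the 10 factors in each of the 6 libraries, on a log axis, with 1 point a library and open symbols left of the dotted line for 0 reads. The CD24+ libraries lie below the CD24- libraries for Gata3 and above them for Sox9 and Esr1, and the lower 4 genes have at most 2 reads in all.

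Gata3 encodes a zinc-finger factor needed for luminal cells to form and to stay differentiated. It lies on chromosome 2 of GRCm38 from 9857078 to 9890034. Its level was 89.1, 81.6 and 94.4 CPM in CD24- replicates 1, 2 and 3, and 44.2, 57.3 and 53.9 CPM in CD24+ replicates 1, 2 and 3. All 3 CD24+ libraries were below the lowest CD24- library, and the shallowest library was the lowest. Gata3 fell by 0.76 on the log2 scale (standard error 0.11, edgeR adjusted p = 2.59e-04), a 1.69-fold lower level. The difference was present in each part of the transcript, where every read was counted that matched this transcript and no other gene, whatever its deposited annotation. Coding reads gave 37.6 ± 2.39 CPM (CD24-) and 21.8 ± 3.33 CPM (CD24+), and reads of the 3′ UTR gave 32.6 ± 2.96 and 17.9 ± 0.833 CPM (SD, n = 3 each). Of the 4871 reads annotated to Gata3, 662 matched no transcript. At its locus 3 other annotated genes overlap it, and 89 of the reads matched transcripts of several genes.

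Esr1 encodes estrogen receptor alpha, the receptor through which estrogen acts on hormone-sensing luminal cells. It lies on chromosome 10 of GRCm38 from 4611593 to 5005614. Its reads numbered 67, 93 and 85 in the CD24- libraries and 123, 337 and 419 in the CD24+ libraries, in the order of the replicates. As CPM these were 7.05, 8.81 and 9.58 in CD24- cells and 19.3, 19 and 21.9 in CD24+ cells, so that all 3 CD24+ libraries lay above the highest CD24- library. Esr1 was 2.38-fold higher in CD24+ cells (log2 fold-change 1.25, standard error 0.15, edgeR adjusted p = 6.90e-05), and it was the only tested member past a log2 fold-change of 1. A call of that size was made for 14.4% of all genes tested. Coding reads gave 2.95 ± 0.769 CPM in CD24- and 5.76 ± 0.687 CPM in CD24+ cells, again with no overlap. After the steps described by the study (median coverage of a transcript, quantile normalization and a regularizer of 10) the log2 fold-change was 0.20 (limma adjusted p = 0.0243), on a scale where 10 is added to every value before the logarithm.

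Sox9 encodes an HMG-box factor of mammary progenitor cells. It lies on chromosome 11 of GRCm38 from 112782224 to 112787760. Its level was 30, 26.7 and 33.6 CPM in the CD24- libraries and 45.1, 53.4 and 47.9 CPM in the CD24+ libraries. Here too the lowest CD24+ library was above the highest CD24- library. Sox9 was 1.63-fold higher in CD24+ cells (log2 fold-change 0.71, standard error 0.11, edgeR adjusted p = 5.42e-04). Of its annotated reads 98.2% matched a Sox9 transcript exactly, and no other annotated gene overlaps the locus. The median-coverage estimate gave a log2 fold-change of 0.20 (limma adjusted p = 0.0156).

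Runx1 encodes the DNA-binding subunit of core binding factor, which acts in both mammary layers. It lies on chromosome 16 of GRCm38 from 92601466 to 92826149. Its level was 62.2, 64.1 and 70.3 CPM in the CD24- libraries and 63.5, 86.8 and 79.4 CPM in the CD24+ libraries. The shallowest library, CD24+ replicate 1, lay among the CD24- libraries, and the other two CD24+ libraries lay above them. Runx1 did not pass the test (log2 fold-change 0.24, standard error 0.12, edgeR adjusted p = 0.12). Without CD24+ replicate 1 it passed (0.33, edgeR adjusted p = 0.0176), where 41.7% of all genes did. It also passed when only reads matching 1 GENCODE gene were counted (0.35, edgeR adjusted p = 0.0205, 45.6% of all genes) and after the median-coverage steps (0.15, limma adjusted p = 0.0445, 32.8% of all genes).

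The parts of the Runx1 transcript did not move alike, a pattern chosen after its values were seen and therefore given without a test. Coding reads numbered 212, 256 and 208 in the CD24- libraries and 107, 419 and 459 in the CD24+ libraries, which is 22.3, 24.3 and 23.4 CPM against 16.8, 23.7 and 24 CPM. These groups overlapped. Reads of the 3′ UTR gave 31.6, 32.5 and 28.2 CPM in CD24- cells and 44.4, 50.2 and 52.3 CPM in CD24+ cells, with every CD24+ library above every CD24- library. The 3′ UTR therefore held 52.1% to 56% of the reads of the Runx1 transcript in CD24- libraries and 66.7% to 70.5% in CD24+ libraries. Reads of the 5′ UTR were few, 9 to 14 in a CD24- library and 2 to 12 in a CD24+ library, and went the other way (1.24 ± 0.229 against 0.503 ± 0.166 CPM, SD, n = 3 each). Of the other tested members, Esr1 had a 3′ UTR share of 61.3% to 73.7% in CD24- and 73.3% to 73.7% in CD24+ libraries. The share of Sox9 was 38% to 40.4% and 41.8% to 42.3%, that of Stat5a 42.4% to 46.1% and 46.4% to 48.2%, and that of Gata3 overlapped between the groups. An annotated antisense gene overlaps Runx1, and reads matching another annotated gene are left out of these values. The counts carry no strand, so antisense RNA outside annotated exons cannot be told apart.

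**Figure D2:**
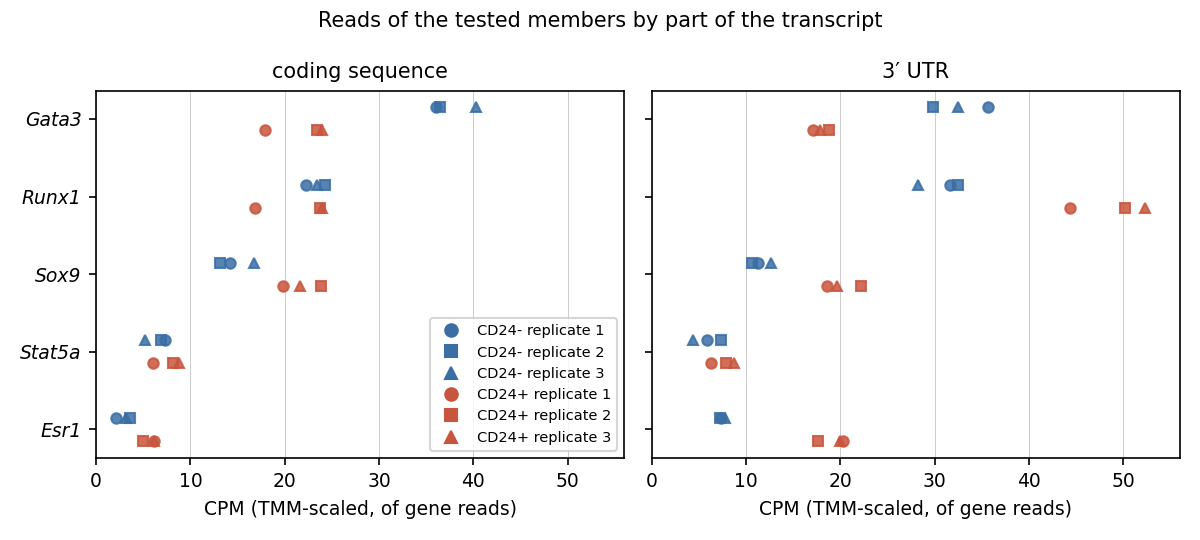
Reads of the coding sequence (left) and of the 3′ UTR (right) of the 5 tested factors, in CPM of gene reads, with 1 point a library. For Runx1 the groups overlap in the coding sequence, while in the 3′ UTR the CD24+ libraries (44.4 to 52.3) lie above the CD24- libraries (28.2 to 32.5).

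Stat5a encodes the factor that carries the prolactin signal to the milk protein genes. It lies on chromosome 11 of GRCm38 from 100859351 to 100885169. Its level was 13.7, 16 and 10.3 CPM in the CD24- libraries and 12.3, 17 and 18.4 CPM in the CD24+ libraries. The groups overlapped, and Stat5a did not pass the test (log2 fold-change 0.28, standard error 0.19, edgeR adjusted p = 0.254). With each library left out in turn the log2 fold-change lay between 0.14 and 0.43 and did not pass. Of the 47-nt stretches within its exons, 17.8% also occur in another gene, so reads there cannot be assigned to 1 of the genes. The Stat3 gene overlaps it on the opposite strand.

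Trp63 had few reads in CD24+ cells and nearly none in CD24- cells. It lies on chromosome 16 of GRCm38 from 25683763 to 25892102. It had 0, 3 and 0 reads in CD24- replicates 1, 2 and 3 and 7, 17 and 27 reads in CD24+ replicates 1, 2 and 3, or 0, 0.284 and 0 CPM against 1.1, 0.96 and 1.41 CPM. All CD24+ libraries lay above all CD24- libraries, at a level of about 1 CPM. Per gene read the summed CD24+ libraries held 11.2 times as many Trp63 reads as the summed CD24- libraries (51 against 3 reads, 95% exact interval 3.64 to 56.3, which covers counting error only). These counts were under the filter on low counts. Without the filter Trp63 passed (log2 fold-change 3.38, standard error 0.74, edgeR adjusted p = 0.00122), where 37% of 14771 genes passed. All 3 CD24- reads came from replicate 2, without which the fitted log2 fold-change was 6.86, a value set by the prior count because the other CD24- libraries had 0 reads.

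Trp63 has a distal start, which gives the TA forms with a transactivation domain, and an internal start, which gives the shorter ΔN forms typical of basal cells. Of the 49 reads that matched Trp63 transcripts exactly, 0 lay in sequence found only in the 4 transcripts from the distal start and 0 in sequence found only in the 4 from the internal start. Along 1 distal-start transcript of 5366 nt, the 42 matching reads began at position 1296, after 22.6% of the usable sequence. The first 25% of the usable sequence held 7.14% of the Trp63 reads, beside 19.8% to 38.5% for the 5 tested members. As no read lay in sequence particular to either start, which start was in use could not be told.

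**Figure D3:**
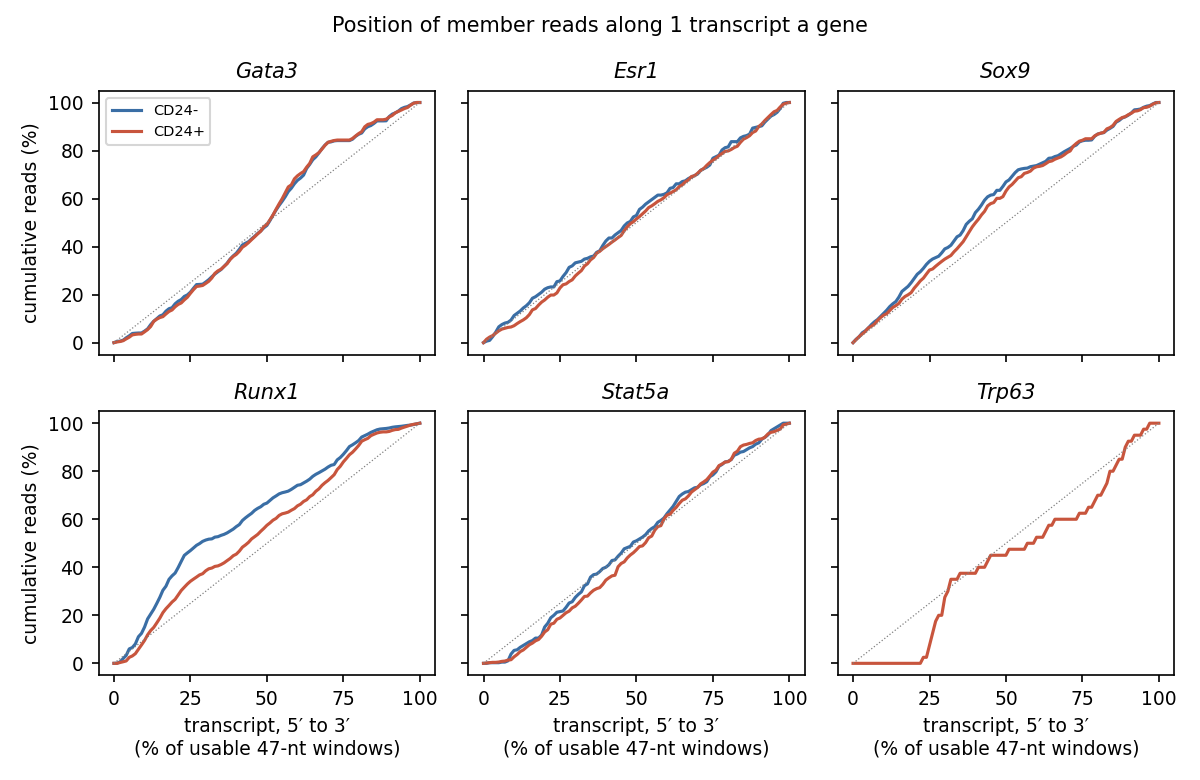
Cumulative percent of reads against position along 1 transcript of each gene, 5′ to 3′, in percent of the 47-nt windows that lie within exons and in no other gene, with the libraries of a group summed and the dotted line for even coverage. The Runx1 curves of the groups part in the 5′ portion, and the Trp63 curve, drawn for CD24+ cells alone because CD24- cells had 2 of these reads, stays at 0 up to 22.6%.

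Elf5, Foxa1, Pgr and Tfap2c were silent or nearly so in both groups. Elf5, an ETS factor of alveolar progenitors on chromosome 2 of GRCm38 from 103411688 to 103450989, had 0 reads among 72046968 gene reads, which allows up to 0.0416 CPM over all libraries and 0.157 to 0.462 CPM in a single library. Foxa1, the pioneer factor that opens chromatin for the estrogen receptor, had 1 read in CD24- replicate 3 and 1 in CD24+ replicate 3, and both matched its transcript. Pgr, whose transcription estrogen induces in the normal gland, had 1 read in CD24+ replicate 1 and 1 in CD24+ replicate 3, and neither matched a Pgr transcript. The CA repeat printed above is one of them. Tfap2c, an AP-2 factor of luminal and progenitor cells, had 1 read in CD24+ replicate 2 and 1 in CD24+ replicate 3. At 0 to 2 reads no difference between the groups was detectable for these 4 genes.

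Levels of different genes were compared per length, as CPM per kilobase of usable sequence. In CD24- cells the order was Gata3 (29.5 ± 1.92), Runx1 (10.4 ± 0.5), Sox9 (7.43 ± 0.875), Stat5a (5.46 ± 1.13) and Esr1 (1.87 ± 0.154; SD, n = 3). In CD24+ cells it was Gata3 (16.5 ± 1.81), Runx1 (13.3 ± 1.51), Sox9 (12 ± 1.02), Stat5a (6.62 ± 1.14) and Esr1 (4.47 ± 0.334). The order was the same in both groups. In CD24- cells no neighbours in it overlapped. In CD24+ cells the ranges of Gata3 (14.4 to 17.6) and Runx1 (11.6 to 14.4) met, and those of Runx1 and Sox9 (11.1 to 13.1) overlapped. Trp63 stood at 0.196 ± 0.0389 on this scale in CD24+ cells. Esr1 was the lowest tested member in both groups, and its range did not overlap that of Stat5a.

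The genes whose level ran most like that of a called member over the 6 libraries were found by the Euclidean distance between log2 CPM values centred on their mean. They included Dock9 (distance 0.13) for Gata3, Tmem106a (0.17) and Emb (0.19) for Esr1, and Atrn (0.09) and Efna5 (0.13) for Sox9. Dock9 went from 303 CPM in CD24- to 175 CPM in CD24+ cells, and Atrn from 68.5 to 115 CPM.

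Transcription factors bind as families and with partner subunits, so 43 relatives and partners of the members were read beside them. Of these, 24 had enough reads and 13 passed (54.2%, beside 46.1% of all genes tested), 8 as higher and 5 as lower in CD24+ cells, with a median log2 fold-change of 0.07. The number that passed as lower was 2 without CD24- replicate 1 or CD24- replicate 2, 3 without CD24+ replicate 2, and 2 with each distinct sequence counted once or with median coverage. Fewer of all genes passed as lower there too, beside 22.3% in the reported fit. The shares were 16.8% and 17.5% without CD24- replicate 1 or 2, and 21.7% without CD24+ replicate 2. They were 14% with distinct sequences and 17.4% with median coverage. Within the GATA family the genes moved in different directions. Gata2, known from blood progenitors, fell as Gata3 did, from 87.6 ± 8.06 to 31.8 ± 1.64 CPM (log2 fold-change -1.46, edgeR adjusted p = 1.26e-06), whereas Gata4 rose from 2.65 ± 0.252 to 12.7 ± 0.459 CPM (2.25, adjusted p = 2.95e-06), and Gata6 had 9 reads. The GATA cofactors moved apart as well, with Zfpm1 lower (-0.33, edgeR adjusted p = 0.0424) and Zfpm2 higher (2.32, adjusted p = 8.25e-07). Gata4, Zfpm1 and Zfpm2 were named after their values were seen.

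Runx3 had the largest increase among the relatives whose mean log2 CPM was 3 or more. It went from 2.95, 1.99 and 3.27 CPM in the CD24- libraries to 30.2, 34.5 and 32.1 CPM in the CD24+ libraries (log2 fold-change 3.58, standard error 0.17, edgeR adjusted p = 1.53e-07). Runx2 (log2 fold-change 0.11, adjusted p = 0.546) and Cbfb, the shared partner subunit of the RUNX factors (-0.10, adjusted p = 0.461), did not pass. In the SOX family Sox2, a factor of pluripotent cells, rose from 1.46 ± 0.689 to 15.6 ± 3.71 CPM, and Sox4 from 6.59 ± 2.64 to 17.7 ± 2.3 CPM (SD, n = 3 each, edgeR adjusted p = 9.99e-06 and 8.40e-04). Their log2 fold-changes were 3.46 and 1.43, beside 0.71 for Sox9.

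Among the other steroid receptors the glucocorticoid receptor gene Nr3c1 rose from 216 ± 11.6 to 250 ± 4.82 CPM (log2 fold-change 0.21, edgeR adjusted p = 0.0437). The orphan receptor Esrra fell (-0.40, edgeR adjusted p = 0.0383), with overlapping groups. The receptor gene Nr3c2 rose from 0.618 ± 0.307 to 5.35 ± 1.11 CPM (3.13, edgeR adjusted p = 3.69e-05), and Esr2 did not pass (0.29, adjusted p = 0.157). Nr3c2 and Esr2 were named after their values were seen. Nr3c2 passed the filter on low counts only through its CD24+ counts, so its call is no separate support. In the STAT family Stat3 fell from 137 ± 14.1 to 108 ± 4.5 CPM (-0.34, adjusted p = 0.0108), and Stat5b did not pass (0.00, adjusted p = 0.977). Stat6, named after its value was seen, fell as well (-0.26, edgeR adjusted p = 0.0157). Tfap2a, the AP-2 gene with the most reads (33.3 to 50.3 CPM), did not pass (-0.17, edgeR adjusted p = 0.276), nor did Elf1 (-0.18, adjusted p = 0.0906) and the p53 gene Trp53 (-0.02, adjusted p = 0.871). Ehf, an ETS relative of Elf5, had 1 read.

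**Figure D4:**
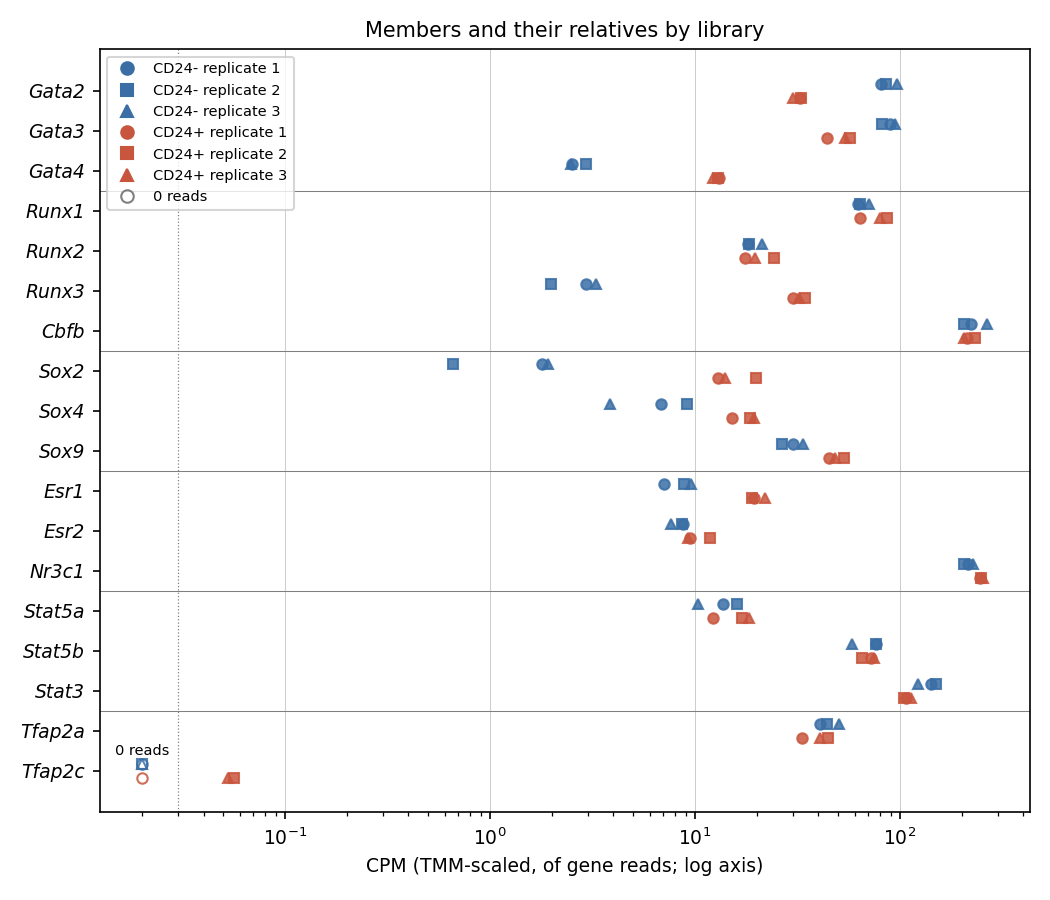
CPM of members and their GATA, RUNX, SOX, steroid receptor, STAT and AP-2 relatives in each library, on a log axis, with open symbols for 0 reads. Gata2 lies lower and Gata4, Runx3, Sox2 and Sox4 lie higher in the 3 CD24+ libraries, with no overlap, while Cbfb, Runx2, Stat5b and Tfap2a overlap.

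Genes known from luminal cells, among them the hormone-sensing cells that Esr1, Pgr and Foxa1 mark, were read next. The keratins and claudins of this list, with Krt8, Krt18, Krt19 and Cldn3 among the tested genes, mark luminal cells in general. The values of the list therefore do not describe hormone-sensing cells alone. Of 16 such genes 6 were tested, all 6 passed (beside 46.1% of all genes), and 5 of them were lower in CD24+ cells (beside 22.3% of all genes), with a median log2 fold-change of -1.03. Krt18 fell from 732 ± 36 to 213 ± 17.1 CPM and Krt8 from 1229 ± 76 to 596 ± 60.8 CPM (log2 fold-changes -1.78 and -1.04, edgeR adjusted p = 1.90e-07 and 1.16e-05). The other 3 that fell, named after their values were seen, were Krt19 (-1.96), Areg (-1.01), an EGF receptor ligand induced by estrogen in the gland, and the surface antigen gene Ly6a (-0.81). Cldn3, a tight junction gene also named after its value was seen, was higher (2.47) at 2.47 ± 0.762 CPM or less. Cldn3 passed the filter on low counts only through its CD24+ counts, so its call among the 6 is no separate support. Greb1, an estrogen receptor target, had 8 reads and the prolactin receptor Prlr 10. Of 13 coregulators of steroid receptors 12 were tested and 5 passed (41.7%, below the 46.1% of all genes), 1 as higher (Ncoa1, 0.59) and 4 as lower, among them Kmt2c (-0.52), Crebbp (-0.45) and Med1 (-0.25), the last named after its value was seen.

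Around Stat5a, 23 of 26 genes of prolactin, JAK and STAT5 signalling were tested, and 10 passed (43.5%, beside 46.1% of all genes tested), 6 as higher and 4 as lower, with a median log2 fold-change of 0.07. Socs3, a feedback inhibitor of JAK kinases, rose from 39.4 ± 7.16 to 93.9 ± 17 CPM, and Bcl2l1, which encodes the survival protein Bcl-xL, from 143 ± 14.8 to 273 ± 32.5 CPM (edgeR adjusted p = 1.04e-04 and 6.11e-05). Jak3 (log2 fold-change -0.49) and Socs6 (-0.46) fell, as did Pias2 (-0.45) and Pias1 (-0.43), while Pias3 rose (0.47), the 3 of them named after their values were seen. Cish, a feedback target of STAT5, had 11 reads. Of 20 milk and alveolar genes 5 were tested and 2 passed (40%, beside 46.1% of all genes), both as higher, Plin2 (0.70), a lipid droplet gene, and Lcn2 (3.05), named after its value was seen. Lcn2 passed the filter on low counts only through its CD24+ counts, so its call is no separate support. A gene of the list also passed as lower with DESeq2 or no filter on low counts, and 2 did without CD24- replicate 3. The milk genes Csn2, Csn1s1, Wap and Lalba had 0 reads. The casein gene Csn3 had 1273 reads, at 5.31 to 33.2 CPM with overlapping groups, and did not pass (-0.82, edgeR adjusted p = 0.208).

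Of 23 basal and myoepithelial genes, read beside Trp63, 9 were tested and 6 passed (66.7%, beside 46.1% of all genes), 2 as higher and 4 as lower, with a median log2 fold-change of -0.27. Perp, a p63 target of cell junctions, fell from 244 ± 31.1 to 55.6 ± 3.5 CPM and Itga6, the integrin chain used to sort basal cells, from 233 ± 37.8 to 65.2 ± 9.21 CPM (log2 fold-changes -2.14 and -1.83, edgeR adjusted p = 1.96e-07 and 2.49e-06). Itgb1 rose (0.34, adjusted p = 0.00719). Jag2 (-1.35) and Procr (-0.70) fell and Acta2, a smooth muscle actin, rose (3.87), the 3 of them named after their values were seen. Among 26 other regulators of mammary cells 13 were tested and 10 passed (76.9%, beside 46.1% of all genes), 7 as higher and 3 as lower. Lmo4, a LIM-domain regulator, rose from 24 ± 2.1 to 76.4 ± 1.69 CPM, and Cebpb, needed for alveolar development, from 58.4 ± 5.06 to 149 ± 34.3 CPM (edgeR adjusted p = 4.43e-07 and 6.11e-05). Klf5 (log2 fold-change -0.69) and the Notch target Hes1 (-0.49) fell, as did Id4 (-1.99) at 2.3 ± 0.45 CPM or less. Snai2 (3.43) and Tbx3 (3.13) rose, to 4.8 ± 1.03 and 6.02 ± 0.876 CPM, and these 3 genes of low level were named after their values were seen. Each of the 3, like Acta2, passed the filter on low counts only through the group where it was high, so these calls are no separate support.

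Few markers of other cell types had enough reads to be tested, and all of these passed, beside 46.1% of all genes tested. Of all genes tested 23.8% passed as higher and 22.3% as lower, and so few markers describe no set. Of 6 fibroblast markers 4 were tested and all 4 were higher in CD24+ cells, where the list summed to 63.2 to 96.8 CPM beside 8.34 to 15.9 CPM in CD24- cells, most of it Pdgfrb (log2 fold-change 3.79), with Pdgfra at 0.87, Dcn and Col1a1 at mean levels of at most 3.19 CPM and Lum at 0 reads. Of 7 immune markers 2 were tested and both were lower, from sums of 46.7 to 80.5 CPM to 7.17 to 9.44 CPM, most of it Cd68 (-3.03), with Itgam at 3.84 ± 0.594 CPM or less, while Cd3e had 0 reads and Ptprc 2. Of 5 endothelial markers 1, Cdh5, was tested and was lower, from sums of 1.69 to 2.65 CPM to 0.157 to 0.787 CPM, and 5 adipocyte markers summed to at most 0.282 CPM in any library. A marker can pass the filter on low counts through the group where it is high alone. Cdh5, whose list summed to at most 0.787 CPM in CD24+ cells, passed it through CD24- cells. Calls of markers that entered the test in this way are no separate support. Dcn, Col1a1, Itgam and Cdh5 were named after their values were seen. The part of these genes in the members' differences was not tested. In bulk RNA, fewer cells of a kind and less RNA per cell cannot be told apart.

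**Figure D5:**
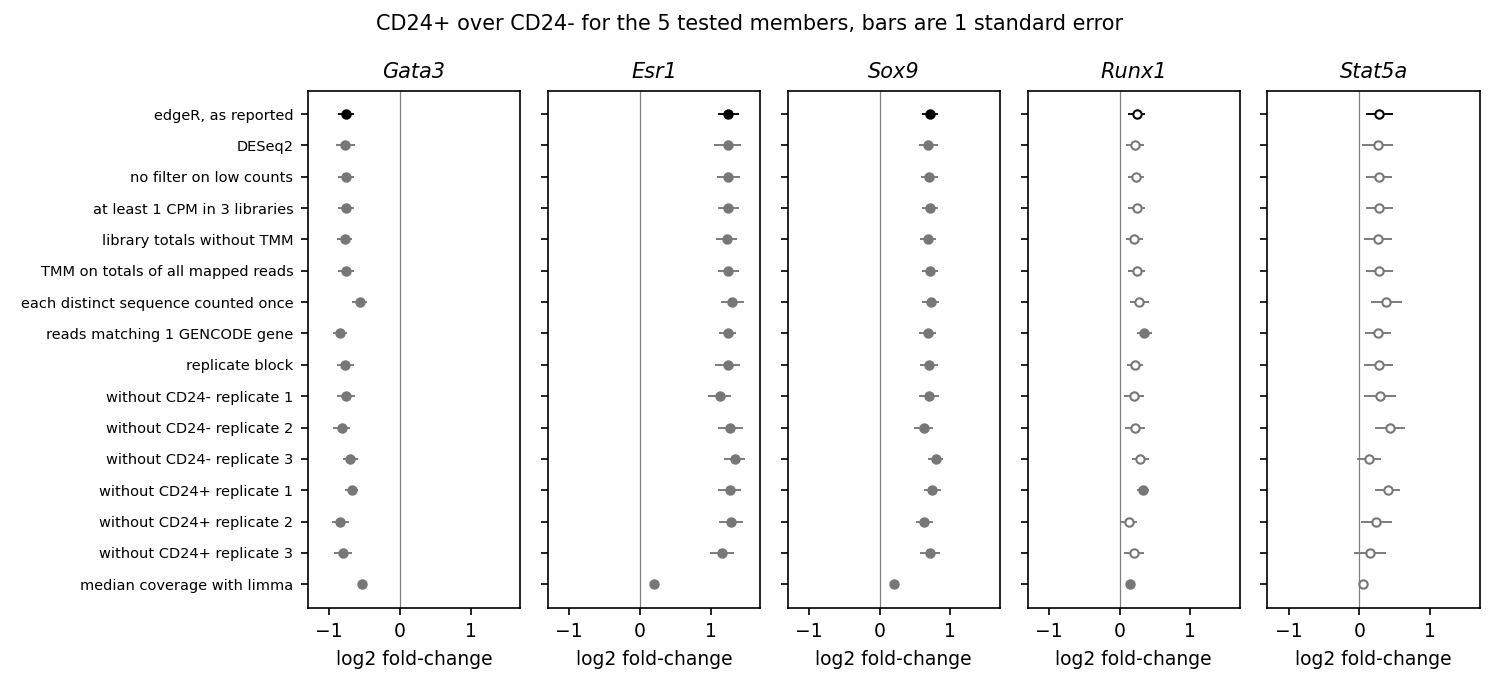
Log2 fold-change of CD24+ over CD24- cells for the 5 tested factors under the reported test and each alternative, with bars of 1 standard error and filled points for an adjusted p under 0.05. Gata3 stays below 0 and Esr1 and Sox9 above 0 with filled points throughout, Runx1 changes between open and filled, and the median-coverage row is on a scale with 10 added to each value.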

How the data were processed

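The authors trimmed reads to 47 nt, collapsed identical reads, matched them exactly to the mouse genome and assigned each 1 location and 1 annotation. They deposited the raw count of every mapped sequence per library, not normalized and not pooled. The submitters' processing notes name mm9, and the mapping tool is not given in the sources used here. Exact matching leaves out reads over exon junctions and sequence variants. Here counts were summed per annotation that names a gene, leaving out repeats, small RNA and unannotated reads.

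Genes passing filterByExpr (minimum count 10) were tested with edgeR 4.0.16 (TMM, quasi-likelihood F test, Benjamini-Hochberg threshold 0.05) in R 4.3.3, CD24+ against CD24-, over all 6 libraries. A gene could pass this filter through the counts of a single group, and the counts of called genes in each list include such genes. Standard errors given for edgeR are the absolute log2 fold-change divided by the square root of the F statistic, not values that the fit estimates itself. Alternatives used DESeq2 1.42.0, limma 3.58.1, other filters and scalings, other read sets, and each library left out. Reads were matched exactly to GENCODE M21 transcripts (GRCm38), 1 transcript a gene for positions and lengths. Intervals and floors (3 counts) cover counting error only. Replicates differed by more than sampling noise (chi-square per degree of freedom 1.75 for CD24- replicates 1 and 2, which were the most alike, and 9.69 to 15.9 for the other pairs). On simulated counts with 200 of 11028 genes changed 4-fold, 100% were recovered and 0.111% of the others called. The changed genes were drawn from those above a minimum level, and all others were unchanged. The simulation therefore does not cover smaller changes, genes of few reads or data where many genes differ.

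The members and gene lists were chosen with earlier results of these data known. Genes named beside the members are direct relatives and partners, and in each list up to 2 called genes each way whose mean log2 CPM was 3 or more, with exceptions marked as named after their values were seen or given for having few reads. Some genes that these rules would name are not reported here.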

Additional observations from a re-analysis of the deposited data

Results flagged for a closer look

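Reads that match member transcripts exactly, but that the deposited annotation gives to no gene, lie outside the counts per gene and their tests. The values by part of the transcript and per kilobase include those that lie on the transcript used there, so they are not separate evidence. Runx1 had most of them, 1916 reads, 20.1 CPM of gene reads (without TMM scaling) in CD24- and 30.9 CPM in CD24+ cells. Esr1 had 440 (3.38 and 7.91 CPM) and Gata3 245 (4.78 and 2.49 CPM), each in the direction of its reported change. Reads annotated to a repeat while matching a member transcript numbered 232 for Gata3, 75 for Stat5a, 17 for Runx1 and 15 for Esr1. Elf5, with 0 reads under its name, had 5 such reads in a retained-intron transcript, 2 in CD24- and 3 in CD24+ cells, annotated to a SINE repeat. These values exceed the limit that a count of 0 allows, no control level exists for them, and they were not tested as groups, but the alternative that counts reads matching 1 GENCODE gene includes those that match a single gene.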

How the results depend on the processing

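Under the alternatives 287 values were computed. Of these, 267 stayed on the same side of the test or, where they were counts, within 1.5 times of the reported one, and 0 reversed. The 267 include values that could hardly move and are no sign of stability. No adipocyte marker was tested in the reported fit, and that list had 0 calls throughout. The filter of at least 1 CPM in 3 libraries left 11125 genes tested and 5130 called, as the reported filter did. Gata3 (-0.84 to -0.68), Esr1 (1.13 to 1.34) and Sox9 (0.62 to 0.79) passed with each library left out. Runx1 passed in 3 alternatives (0.35 with reads matching 1 GENCODE gene, 0.15 with median coverage, 0.33 without CD24+ replicate 1), and lay between 0.13 and 0.33 without single libraries. Trp63 (3.38 without the filter) had values of 2.85 to 6.86 without single libraries. It was under the filter without CD24+ replicate 1 or 3, and as it passes the filter through the CD24+ counts alone, these values are no sign of stability. The cause was not tested for Runx1. A minimum log2 fold-change of 1, by construction, left 1600 of 5130 called genes, 1 of 3 called members (Esr1), 8 relatives, 6 other regulators, 1 milk gene, 1 gene of prolactin signalling and 0 coregulators. Median coverage, which tests fewer genes (9582), called 3143 genes (32.8%) and 6 of 19 tested relatives. It tested 1 fibroblast, 0 endothelial and 1 immune marker, and called the fibroblast and the immune marker. Distinct sequences counted once called 1 of 5 tested milk genes and 1 of 12 tested coregulators (the cause was not tested). Of all genes tested 33.4% were called in that setting, beside 46.1% in the reported fit. Without single libraries the called genes numbered 4069 to 5358 and the called members 3 to 4. The milk genes numbered 2 to 4 (4 without CD24- replicate 3), the coregulators 3 to 5 (3 without CD24- replicate 2) and the fibroblast markers 2 to 4 (2 without CD24+ replicate 3, where 3 were tested). DESeq2 called 4955 genes. The sources used here do not say whether the replicate numbers pair the plates. Deviations of same-numbered libraries from their group means correlated at 0.0143, -0.251 and -0.31. No CD24- library correlated best with the CD24+ library of its number. With 3 plates a group these values cannot exclude a pairing. The fit with the replicate number as a block called 4493 genes and 3 members. Depth limits Elf5, Foxa1, Pgr and Tfap2c, at 0 to 2 reads, and Trp63.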
